A study of Mus musculus with 6 samples.

Results

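Transcription factors that mark layers of excitatory neurons in the cerebral cortex were followed in mouse cortical cultures given α-synuclein fibrils. The 9 genes, Tbr1, Foxp2, Bcl11b, Fezf2, Cux1, Cux2, Foxp1, Mef2c and Neurod6, were taken by symbol from a table of 24411 genes, and all 9 were found and had enough counts to be tested. The cells came from the cortex of mouse embryos at day 18 and were grown as dissociated cultures, which also held glia (below), and the labels name no strain. One group of 3 samples (PFF) received preformed fibrils of mouse α-synuclein, aggregates made outside the cell that seed aggregation of the cell's own protein, at 3.45 µM on day 10 in vitro. The other 3 samples (PBS) received phosphate-buffered saline, and RNA of both groups was taken on day 18 in vitro. Nothing says whether samples of a group came from separate cultures; the p-values therefore rest on a spread among 3 samples that could be technical.

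Cortical excitatory neurons are born in order, deep layers first and upper layers later, and each layer's projection type is fixed by factors that repress one another. TBR1 and FOXP2 mark neurons that project to the thalamus from the deepest layer. FEZF2 and its downstream zinc finger factor BCL11B (CTIP2) specify neurons of the layer above, which project to targets below the cerebrum, among them brainstem and spinal cord. CUX1 and CUX2, homeodomain proteins related to Drosophila cut, mark the upper layers and act on dendrite branching and synapse formation. FOXP1, a forkhead factor, MEF2C, a MADS-box factor regulated by activity and calcium, and NEUROD6, a basic helix-loop-helix factor, are each found in excitatory neurons of several layers. Several of these genes also serve outside the excitatory lineage: Bcl11b, Foxp1 and Foxp2 in striatal projection neurons, Bcl11b and Mef2c in interneurons, and Mef2c in microglia and endothelium.

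Promoter windows are shown for the 3 factors that rose in PFF (below) and for the upper layer factor Cux2, whose window held the least common motif found. Each runs 5′ to 3′ over the 250 bases before a RefSeq start site (GRCm38.p6) on the gene's strand, and capitals mark matches to any motif searched.
Tbr1, chr2:61804203-61804452, plus strand: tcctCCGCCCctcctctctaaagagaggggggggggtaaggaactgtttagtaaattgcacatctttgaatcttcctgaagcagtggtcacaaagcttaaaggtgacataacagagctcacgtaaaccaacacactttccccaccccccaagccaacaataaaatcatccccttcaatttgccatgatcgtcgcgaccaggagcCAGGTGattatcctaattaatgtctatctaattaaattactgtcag
Foxp1, chr6:99266516-99266765, minus strand: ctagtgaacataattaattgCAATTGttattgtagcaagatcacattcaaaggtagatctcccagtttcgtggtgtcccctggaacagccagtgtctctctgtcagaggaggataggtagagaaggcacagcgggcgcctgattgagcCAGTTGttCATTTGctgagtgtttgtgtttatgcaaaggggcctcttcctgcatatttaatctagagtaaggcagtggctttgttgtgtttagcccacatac
Mef2c, chr13:83503784-83504033, plus strand: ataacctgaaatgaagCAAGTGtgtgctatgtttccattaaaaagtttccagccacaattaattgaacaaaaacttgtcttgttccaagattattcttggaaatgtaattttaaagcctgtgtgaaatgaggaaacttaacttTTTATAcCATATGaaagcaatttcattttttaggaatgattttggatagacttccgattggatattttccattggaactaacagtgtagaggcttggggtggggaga
Cux2, chr5:122047826-122048075, minus strand: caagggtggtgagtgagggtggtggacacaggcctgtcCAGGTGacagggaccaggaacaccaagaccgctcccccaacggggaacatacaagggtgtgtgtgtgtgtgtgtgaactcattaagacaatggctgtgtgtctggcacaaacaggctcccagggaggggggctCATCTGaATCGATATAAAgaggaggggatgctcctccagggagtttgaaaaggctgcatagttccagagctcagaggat

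These are 4 of the 13 windows that RefSeq start sites gave for 8 of the 9 factors, and counts per gene do not show which start site was used. The motifs, searched on both strands, were the E-box CANNTG (bound by basic helix-loop-helix factors), its NEUROD-type form CAGATG, the MEF2 core TATTTATA, the forkhead core TGTTTAC, the T-box half-site TCACACC, the CUX-type site ATCGAT, the cyclic AMP response element (CRE) TGACGTCA and its half-site TGACG, the serum response core, the TATA box TATAAA and the GC box GGGCGG. The CRE contains its half-site, and the NEUROD-type form is itself an E-box. An E-box stood in 9 of the 13 windows and in 66.2% of all 32851 windows of the same length, and a GC box in 5 of 13 and in 32.7%. The NEUROD-type form stood in 2 of 13 and in 14.4%, and the TATA box in 3 of 13 and in 12.4%. The forkhead core stood in 1 of 13 and in 3.17%, and the CRE half-site in 1 of 13 and in 17.8%. Windows of Foxp1 not shown held GC boxes and a CRE half-site, and those of Mef2c a GC box and a NEUROD-type E-box, which the windows shown lack. The CUX-type site stood in 1 of 13, the Cux2 window above, where it shares a base with a TATA box, and in 0.728% of all windows. The MEF2 core, the T-box half-site, the CRE and the serum response core stood in none of the 13 and in 1.56%, 3.33%, 1.55% and 0.0609% of all windows.

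Library totals ranged from 9224974 to 10742383 estimated counts, and the factors had between 90 (Fezf2) and 6639 (Mef2c) counts in a sample. Replicate 3 of both groups stood apart on the second principal component (18.3% of the variance), so counts are also given without it. The ribosomal RNA gene Rn45s took 4.27, 4.21 and 5.80% of the counts in PBS 1 to 3. In PFF 1 to 3 it took 3.46, 3.06 and 4.13%, below all PBS samples, and its bearing on the factors was not tested. Excitatory markers were present, with the vesicular glutamate transporter gene Slc17a7 between 539.7 and 674 CPM (counts per 1000000, TMM-normalised). Markers of other cells were present too: the summed level of the 20 interneuron markers ran from 959 to 1049.8 CPM in PBS and from 937 to 1020.3 in PFF, and that of the 12 astrocyte markers from 5029 to 6535 and from 5009.6 to 6156.

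Of the 9 factors 3 rose in PFF and none fell, at an adjusted p under 0.05 in edgeR's quasi-likelihood test. These were Tbr1, Foxp1 and Mef2c, each by about 1.3-fold (1.31, 1.32 and 1.28). Over all 13919 genes tested, 3.98% were higher and 2.6% lower by the same rule, 6.58% in all. The median log2 fold change was 0.11 over the 9 factors and −0.00056 over all genes. The same 3 were the factors with an unadjusted p under 0.05 (21.2% of all genes), and none was called lower by DESeq2 or limma-voom. For 2 of the 9, Tbr1 and Mef2c, all 3 PFF samples lay above all 3 PBS samples, against 13.4% of all genes, and no factor had them all below (25% of all genes did not overlap, in either direction). In these bulk samples, a change in the number of cells of a type and a change in RNA per cell cannot be told apart. The 3 calls were near the threshold: without PBS 1, PBS 2, PBS 3, PFF 1 or PFF 2 none of the factors passed in edgeR, while all 3 passed without PFF 3 and with replicates 1 and 2 only, where more of all genes passed too (8.78% higher and 8.38% lower).

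**Figure D1:**
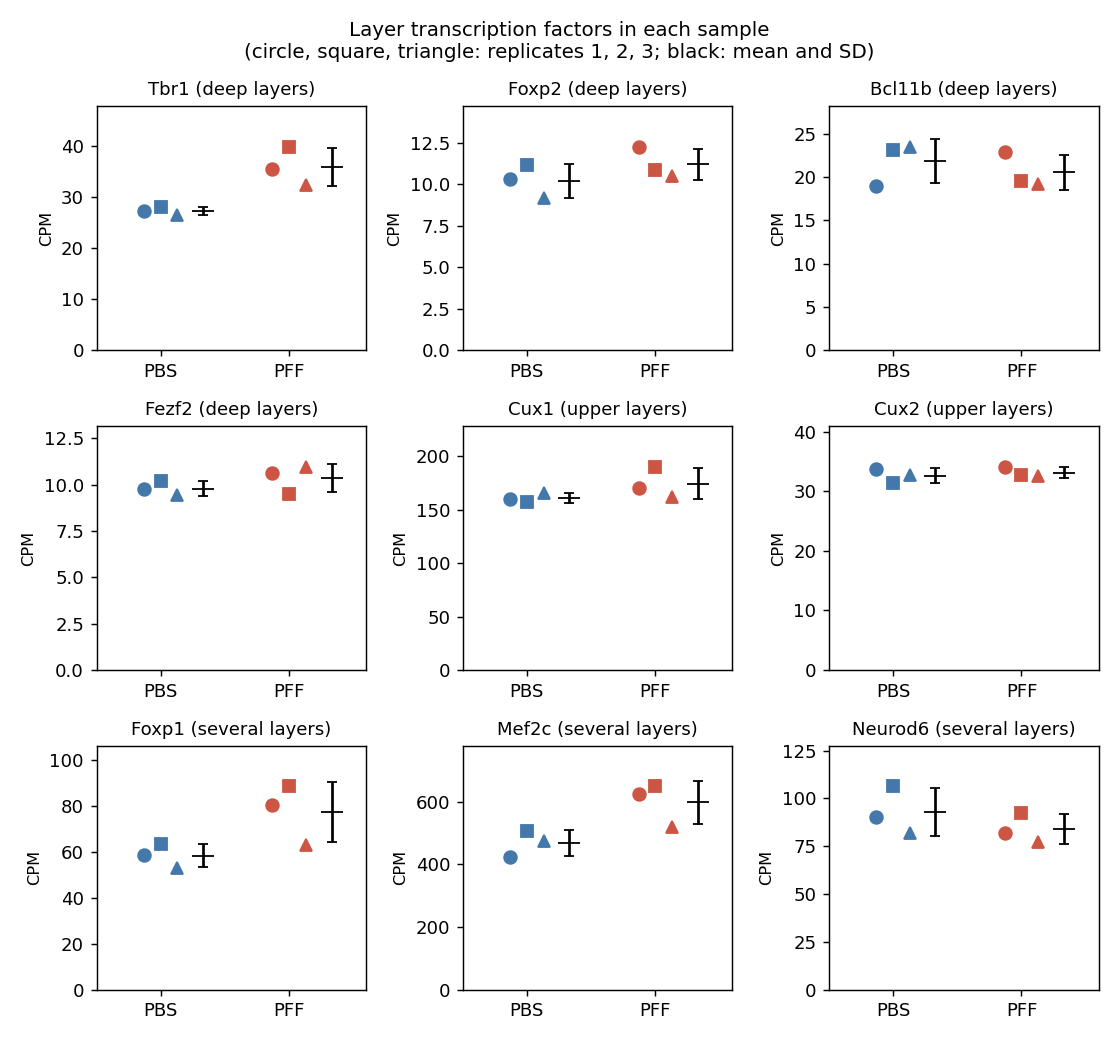
Level of each of the 9 factors in CPM (y axis, from 0) in the 3 PBS and 3 PFF samples, with the mean and SD of each group in black. For Tbr1 and Mef2c the PFF samples lie above all PBS samples, and for Foxp1 the sample PFF 3 (63.2 CPM) sits just under PBS 2 (63.3 CPM).

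Tbr1, the T-box factor of the deepest layer, lies on chromosome 2 from 61802930 to 61814114 (GRCm38, plus strand, protein-coding). It stood at 27.3, 28.2 and 26.6 CPM in PBS 1 to 3 and at 35.5, 39.8 and 32.3 CPM in PFF 1 to 3. The PBS samples lay close together, at a mean of 27.3 ± 0.798 CPM (SD, n = 3), and the PFF samples were spread more widely, at 35.9 ± 3.78. The log2 fold change was 0.39 ± 0.10 (SE), with an adjusted p of 0.0287 in edgeR and a 95% interval of 1.13 to 1.52 for the fold. With replicates 1 and 2 only it was 0.45 ± 0.10 (edgeR adjusted p = 0.00224). Without PFF 2, the highest sample, it was 0.31 (edgeR adjusted p = 0.176), and without PBS 1, PBS 2, PBS 3 or PFF 1 the adjusted p in edgeR ran from 0.0664 to 0.107.

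The other deep layer factors did not pass. Foxp2, a forkhead factor of corticothalamic neurons on chromosome 6 from 14901349 to 15441977, had 10.3, 11.2 and 9.14 CPM in PBS and 12.2, 10.9 and 10.5 in PFF. Its groups overlapped, with a log2 fold change of 0.14 ± 0.14 and a 95% interval of 0.897 to 1.34 for the fold. Bcl11b, the subcerebral zinc finger factor on chromosome 12 from 107910403 to 108003602, had 18.95, 23.1 and 23.5 CPM in PBS and 22.8, 19.6 and 19.2 in PFF. PBS 1 was its lowest sample and PFF 1 the highest of PFF, and the groups overlapped (log2 fold change −0.09 ± 0.12, interval 0.789 to 1.12). Its sign depended on replicate 3, since replicates 1 and 2 alone gave 0.02. Fezf2, the zinc finger gene on chromosome 14 from 12342094 to 12348189 that acts upstream of Bcl11b, had 9.75, 10.2 and 9.43 CPM in PBS and 10.6, 9.497 and 10.97 in PFF. Its log2 fold change was 0.08 ± 0.13 (interval 0.8698 to 1.29). In edgeR the adjusted p of Foxp2, Bcl11b and Fezf2 was 0.617, 0.705 and 0.7796. The interval of Foxp2 includes the 1.31-fold rise of Tbr1, and that of Fezf2 ends just below it. With 1 sample left out, the log2 fold change ran from 0.06 to 0.20 for Foxp2, from −0.18 to −0.04 for Bcl11b and from 0.04 to 0.14 for Fezf2, and none passed in edgeR.

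Neither upper layer factor passed, in edgeR, DESeq2 or limma-voom, and with all 6 samples neither had an unadjusted p under 0.05 in any of these tools. Cux1, on chromosome 5 from 136248135 to 136567490, had 160.4, 157 and 166 CPM in PBS and 169.9, 190.3 and 162 in PFF. PFF 2 was its highest sample and PFF 3 lay within the PBS range. Its log2 fold change was 0.11 ± 0.08 (adjusted p = 0.429 in edgeR, interval 0.964 to 1.22 for the fold). It was 0.05 without PFF 2, and 0.19 ± 0.07 with replicates 1 and 2 only, where its unadjusted p was under 0.05 and its adjusted p 0.0627 in edgeR. Exons of the gene model Gm16599 on the opposite strand cover 1.97% of its exonic bases. Cux2, on chromosome 5 from 121856366 to 122050102, varied least of the 9 over the 6 samples: it had 33.8, 31.4 and 32.6 CPM in PBS and 34.1, 32.7 and 32.5 in PFF, the highest 1.09 times the lowest. Its log2 fold change was 0.02 ± 0.09 (adjusted p = 0.909 in edgeR, interval 0.895 to 1.15), and its sign turned without PBS 2 or PFF 1 (−0.0069 and −0.00020).

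Deep and upper layer factors as groups differed little in their change. The mean log2 CPM of the 4 deep factors minus that of Cux1 and Cux2 was −2.27, −2.07 and −2.26 in PBS and −2.07, −2.21 and −2.14 in PFF. PFF 1 and PBS 2 shared the highest values, and the groups overlapped. Group means were −2.20 ± 0.11 and −2.14 ± 0.07 (SD, n = 3), a difference of 0.06, which is smaller than either SD. These values compare changes and not levels, since they are not scaled by gene length, and no test was made over the chosen genes. Gene by gene, the change of Tbr1 exceeded that of Cux1 by 0.27 and that of Cux2 by 0.36 on the log2 scale, with no overlap between the groups. Each of these pairs uses Tbr1, whose own PFF samples lay above all PBS samples. For Foxp2, Bcl11b and Fezf2 the difference from Cux1 or Cux2 lay between −0.20 and 0.11, and the groups overlapped in every pair. With Foxp1 counted as a deep layer factor the group difference was 0.11.

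**Figure D2:**
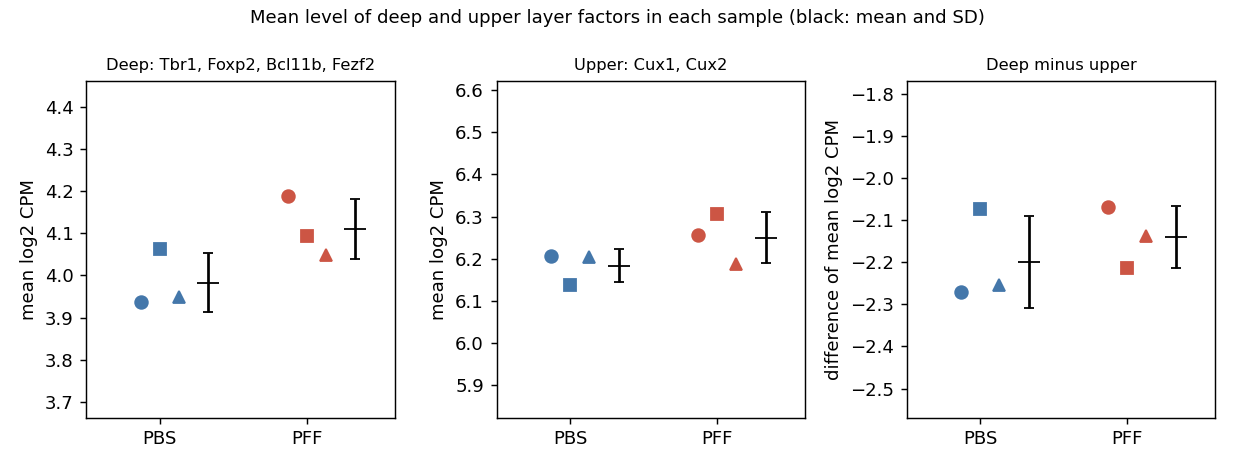
Mean log2 CPM of the 4 deep layer factors, of the 2 upper layer factors, and their difference (y axes, each spanning the same range and not starting at 0), in each PBS and PFF sample with group mean and SD. The difference overlapped between the groups, at −2.27 to −2.07 in PBS and −2.21 to −2.07 in PFF.

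Of the factors found in several layers, Foxp1 and Mef2c rose and Neurod6 did not pass. Foxp1, on chromosome 6 from 98925338 to 99522721, had 58.8, 63.3 and 53.1 CPM in PBS and 80.3, 88.6 and 63.2 in PFF. PFF 1 and PFF 2 stood above all PBS samples, and PFF 3 lay within their range. The log2 fold change was 0.41 ± 0.11 (adjusted p = 0.0481 in edgeR, interval 1.12 to 1.57 for the fold) and was 0.47 ± 0.08 with replicates 1 and 2 only (edgeR adjusted p = 0.000120). It missed the threshold in limma-voom (adjusted p = 0.0611), with upper quartile scaling (edgeR adjusted p = 0.0565) and with scaling by library size only (edgeR adjusted p = 0.0526). The same held with at least 50 counts in 3 samples (edgeR adjusted p = 0.0616). Leaving out PBS 1, PBS 2, PBS 3, PFF 1 or PFF 2 gave adjusted p from 0.0610 to 0.276 in edgeR. Foxp1 passed in 8 of 17 alternatives. Other gene models on its strand cover 3.16% of its exonic bases.

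Mef2c, on chromosome 13 from 83504034 to 83667080, had the highest counts of the 9. It stood at 424, 506 and 475 CPM in PBS and at 626, 649.99 and 519 in PFF. All PFF samples lay above all PBS samples, PFF 3 by the smallest margin (519 against 506 in PBS 2). The means were 468 ± 41.4 and 598 ± 69.9 CPM (SD, n = 3), with a log2 fold change of 0.35 ± 0.10 (adjusted p = 0.0474 in edgeR, interval 1.10 to 1.48 for the fold). With replicates 1 and 2 only it was 0.46 ± 0.08 (edgeR adjusted p = 0.000183). It missed the threshold with DESeq2 size factors (edgeR adjusted p = 0.0501) and upper quartile scaling (edgeR adjusted p = 0.0525). The same held with at least 50 counts in 3 samples (edgeR adjusted p = 0.0558) and in non-robust edgeR (adjusted p = 0.0507). Without PBS 1, PBS 2, PBS 3, PFF 1 or PFF 2 the adjusted p in edgeR ran from 0.0655 to 0.2497. Mef2c passed in 8 of 17 alternatives.

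Neurod6, on chromosome 6 from 55677822 to 55681263, had 90.3, 106.4 and 82.0 CPM in PBS and 82.1, 92.4 and 77.2 in PFF. The groups overlapped. Each PFF sample was below the PBS sample of its own number, but no label says whether the numbers pair the samples. The log2 fold change was −0.15 ± 0.10 (adjusted p = 0.4299 in edgeR) with an interval of 0.778 to 1.05 for the fold, and the difference from the other factors was not tested. It was −0.04 without PBS 2, its highest sample, −0.23 without PBS 3, −0.22 without PFF 2 and −0.09 without PFF 3, and none of these passed in edgeR. The signs of Neurod6, Tbr1, Foxp1 and Mef2c were kept under all 17 alternatives tried.

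**Figure D3:**
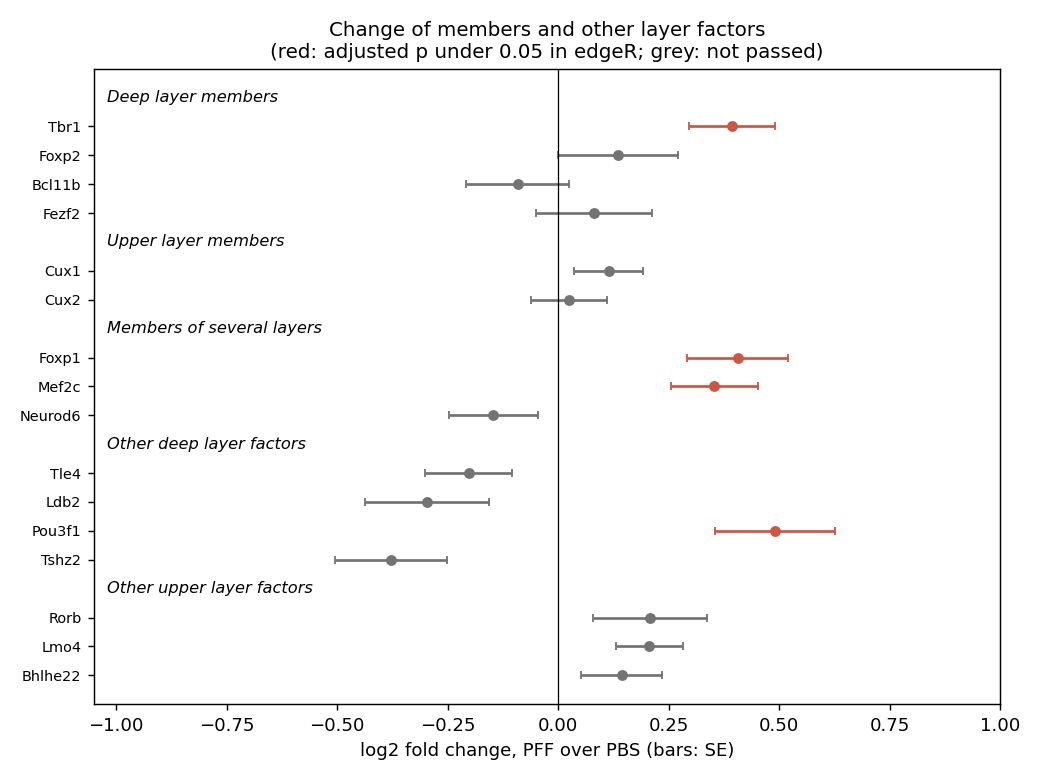
Log2 fold change of PFF over PBS (x axis, bars SE) of the 9 factors and of 7 other deep and upper layer factors that the text names (y axis), red where the adjusted p was under 0.05 in edgeR. Tbr1, Foxp1, Mef2c and Pou3f1 are red, and the estimates of the others lie between −0.38 (Tshz2) and 0.21 (Rorb).

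Because Mef2c is also a microglial gene, microglia markers were read beside it. Of the 19 tested of 20 markers, 17 rose and none fell, with a summed level of 244 to 373 CPM in PBS and 664 to 804 in PFF; none of the 20 was at 0 in every sample, and Tmem119, at under 1 CPM, was not tested. Within each group the sample with the highest microglia sum had the lowest Mef2c: PFF 3 (804 CPM of markers, 519 CPM of Mef2c) and PBS 1 (373 and 424). PBS 2, with the lowest microglia sum (244), had the highest Mef2c of its group (506), while PFF 1, with the lowest sum of PFF (664), had less Mef2c than PFF 2 (626 against 649.99 CPM, with a sum of 667 in PFF 2). The microglial part in the level of Mef2c was not tested. Endothelial, pericyte and fibroblast markers summed to 69.2 to 90.4 CPM in PBS and 44.7 to 77.1 in PFF, with 1 fall and no rise among 11 tested of 14 and Cldn5 at 0 in every sample. Of 14 oligodendrocyte lineage markers 5 rose and 8 fell, and of 12 astrocyte markers none rose and 3 fell.

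**Figure D4:**
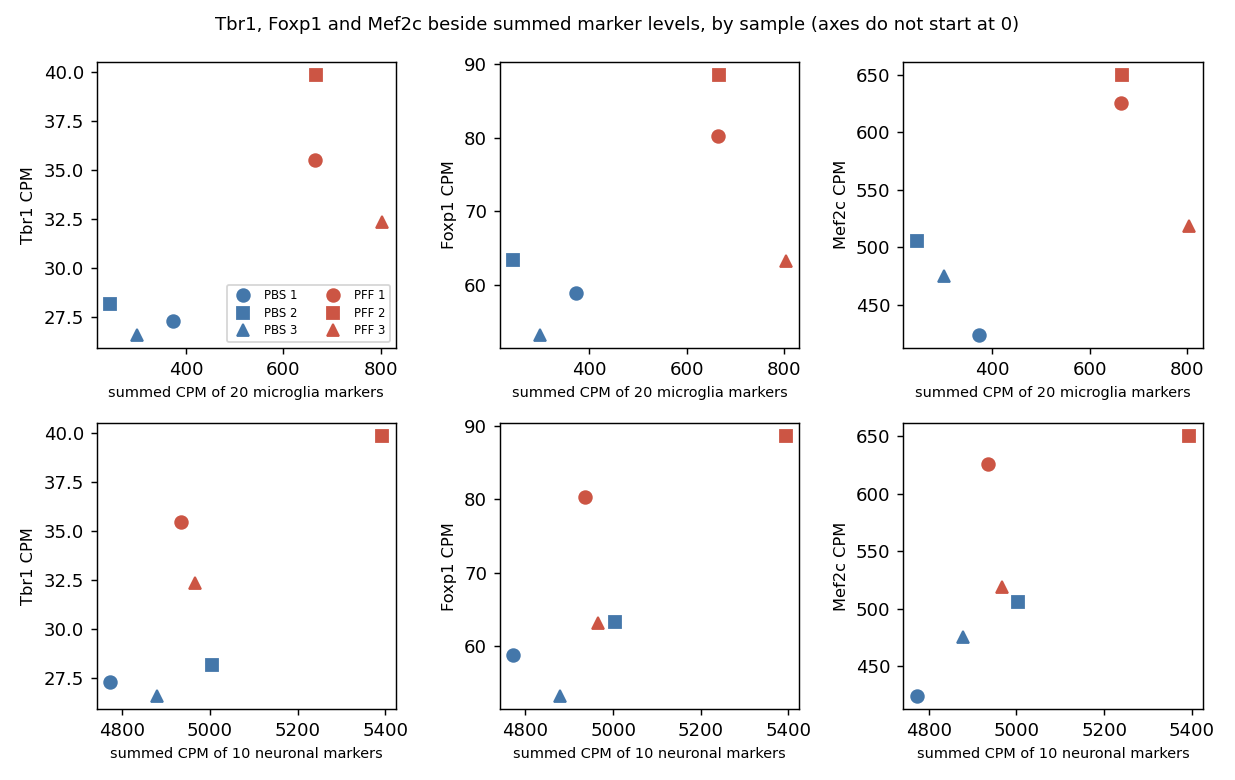
CPM of Tbr1, Foxp1 and Mef2c (y axes) against the summed CPM of 20 microglia markers (upper row) and of 10 neuronal markers (lower row, x axes) in the 6 samples. PFF 3 has the highest microglia sum (804) and the lowest value of the 3 PFF samples for each gene, and PFF 2 has the highest neuronal sum (5394) and the highest value of each.

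Markers of all neurons were also set beside the 3 factors. Of 10 such markers 1, the synaptotagmin gene Syt1, rose (0.33 ± 0.09, adjusted p = 0.0489 in edgeR) and none fell, with a median log2 fold change of 0.16. Their sum ran from 4773 to 5004 CPM in PBS and from 4935 to 5394 in PFF, and PFF 2 stood highest in the sum and in Tbr1, Foxp1 and Mef2c alike. Of the 11 excitatory neuron markers 1 rose and none fell, with a median of 0.09. This was Slc17a6, a vesicular glutamate transporter, which went from 38.5, 43.9 and 43.9 CPM in PBS to 57.4, 69.2 and 59.5 in PFF (0.56 ± 0.09, adjusted p = 0.00246 in edgeR). Camk2a, the α subunit of the calcium/calmodulin-dependent kinase of excitatory neurons, did not pass in edgeR (−0.26 ± 0.09, adjusted p = 0.0965) but was called lower by DESeq2. Slc17a7 did not pass (0.17 ± 0.08, adjusted p = 0.237 in edgeR). The part of neuronal content in the rise of the 3 factors was not tested.

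Foxp1, Foxp2 and Bcl11b are also factors of striatal projection neurons. Of the 14 tested of 16 striatal markers 3 rose and none fell (3.98% and 2.6% of all genes), with a median of 0.22. Estimates were positive for 12 of the 14 and ran from −0.89 to 1.52. All PFF samples lay above all PBS samples for 8 and below for 1 (13.4% and 11.6% of all genes). In edgeR 1 marker was called lower with no low-count filter, with a replicate block or without PBS 1. The 16 markers summed to 349 to 376 CPM in PBS and 402 to 442 in PFF. Among them, the adenosine receptor gene Adora2a rose by 0.61 ± 0.17 (adjusted p = 0.0427 in edgeR). Ikzf1, which blood and immune cells also express, rose by 1.52 ± 0.26. The dopamine- and cyclic AMP-regulated phosphoprotein gene Ppp1r1b did not pass (0.29 ± 0.09, adjusted p = 0.0869 in edgeR). Isl1 and Ebf1, at under 1 CPM in each sample, were too low to test. The striatal part in the level of Foxp1 was not tested. The interneuron markers, which bear on Bcl11b and Mef2c, moved in both directions: of 20, Maf rose (0.71 ± 0.16), and Npy (−0.64 ± 0.08), Sst (−0.62 ± 0.09) and Vip (−0.79 ± 0.19) fell.

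Other factors of the same layers mostly did not pass. Among 10 further deep layer factors 1 rose and none fell, against 3.98% and 2.6% of all genes. The median log2 fold change was −0.11. The one was Pou3f1, a POU factor of subcerebral neurons, with 14.1, 14.0 and 18.6 CPM in PBS and 20.2, 25.2 and 20.3 in PFF (0.49 ± 0.14, adjusted p = 0.0468 in edgeR). All its PFF samples lay above all PBS samples, and for 2 others of the 10 they lay below. Over all genes tested these shares were 13.4% and 11.6%. Pou3f1 missed the threshold without PBS 1, PBS 2, PFF 1 or PFF 2 (edgeR adjusted p from 0.0634 to 0.261) and with upper quartile scaling (edgeR adjusted p = 0.0534). Tshz2 (−0.38 ± 0.13), Ldb2 (−0.30 ± 0.14) and the corepressor gene Tle4 (−0.20 ± 0.10), which marks corticothalamic neurons as Tbr1 and Foxp2 do, had adjusted p of 0.102, 0.245 and 0.255 in edgeR. Of the exonic bases of Tshz2, 67.5% are covered by gene models on the opposite strand.

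None of 7 further upper layer factors passed in edgeR, DESeq2 or limma-voom, with a median of 0.14. In edgeR, 2 had an unadjusted p under 0.05 (21.2% of all genes did), among them the LIM-only factor Lmo4 (0.21 ± 0.08, adjusted p = 0.137). For the orphan nuclear receptor gene Rorb, PFF 1 and PFF 2 were high, at 46.6 and 51.4 CPM, and PFF 3, at 34.3, lay below all PBS samples (35.2 to 42.0). Without PFF 3, and with replicates 1 and 2 only, Lmo4 (0.24 and 0.24) and Rorb (0.36 and 0.44) passed. Bhlhe22 stood at 0.14 ± 0.09 (adjusted p = 0.395 in edgeR).

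Paralogs of the factors showed no call, in edgeR, DESeq2 or limma-voom, among the 6 tested of 12. An unadjusted p under 0.05 in edgeR was reached by 3, against 21.2% of all genes. The family members of Mef2c, Mef2a (0.26 ± 0.08, adjusted p = 0.0675 in edgeR) and Mef2d (0.19 ± 0.08, adjusted p = 0.182 in edgeR), had PFF samples above all PBS samples. All PFF samples lay above all PBS samples for 3 of the 6 paralogs and below for none, against 13.4% and 11.6% of all genes. Mef2a stood at 92.8, 97.3 and 88.0 CPM in PBS and at 112.0, 117.7 and 102.9 in PFF, and it passed with replicates 1 and 2 only (edgeR adjusted p = 0.00688). Of the NEUROD family, Neurod1 was at 0.40 ± 0.14 and Neurod2 at 0.23 ± 0.11 (adjusted p = 0.119 and 0.2403 in edgeR), against −0.15 for Neurod6. Bcl11a, the paralog of Bcl11b, was at 0.19 ± 0.10, and Foxp4 at −0.05 ± 0.09. Eomes, the paralog of Tbr1 that marks intermediate progenitors, had 3, 5 and 6 counts in PBS and 11, 8 and 12 in PFF and was too low to test, as were Tbx21, Fezf1, Foxp3, Mef2b and Neurod4.

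Factors of the pallial lineage that precede the layer factors were not called either, with 0 of 13 tested in edgeR, DESeq2 and limma-voom. The median was −0.07. All PFF samples lay above all PBS samples for 1 of the 13 and below for 5 (13.4% and 11.6% of all genes). An unadjusted p under 0.05 in edgeR was reached by 4, against 21.2% of all genes. The 4 were Neurod1, above, Sox4 (−0.19 ± 0.08), the homeobox gene Emx2 (−0.30 ± 0.13) and the proneural gene Neurog2 (−0.55 ± 0.23), with adjusted p from 0.119 to 0.192 in edgeR. Gene models on the opposite strand cover 54.6% of the exonic bases of Sox4.

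Genes that layer neurons use, apart from transcription factors, gave 2 rises and no fall among 16 tested, with a median of 0.22. The calcium buffer gene Calb1, an upper layer gene that interneurons also express, had 57.5, 67.2 and 62.4 CPM in PBS and 85.4, 81.8 and 76.1 in PFF (0.38 ± 0.08, adjusted p = 0.0146 in edgeR). Its groups did not overlap. The heparan sulfate sulfotransferase gene Hs3st4, of deep layers, had 13.6, 12.5 and 15.7 CPM in PBS and 17.3, 19.97 and 19.9 in PFF (0.45 ± 0.12, adjusted p = 0.0429 in edgeR), and it did not pass in DESeq2 (adjusted p = 0.0748). Calb1 missed the threshold without PBS 1, PFF 1 or PFF 2 (edgeR adjusted p from 0.0660 to 0.0944), and Hs3st4 without PBS 1, PBS 2, PFF 2 or PFF 3 (0.0537 to 0.192). Kitl (0.30 ± 0.09) and Fam19a1 (0.28 ± 0.09) had adjusted p of 0.0666 and 0.0820 in edgeR. Counted once each, 3 of 49 further layer, lineage, paralog and effector genes rose and none fell. Over all genes tested, 3.98% rose and 2.6% fell. All PFF samples lay above all PBS samples for 10 of the 49 and below for 10, against 13.4% and 11.6% of all genes. With replicates 1 and 2 only, 10 of 50 rose and 2 fell, where 8.78% of all 13953 genes tested rose and 8.38% fell.

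Levels of different genes were compared per length, as CPM per kb (1000 bases) of the exons of all annotated transcripts. In PBS the order was Neurod6 (43.2 ± 5.77), Mef2c (29.8 ± 2.63), Cux1 (8.04 ± 0.219), Tbr1 (4.98 ± 0.145), Foxp1 (4.25 ± 0.371), Cux2 (3.23 ± 0.120), Fezf2 (3.21 ± 0.126), Bcl11b (2.69 ± 0.310) and Foxp2 (0.624 ± 0.0620; SD, n = 3 each). Cux2 and Fezf2 did not differ beyond their spread, and the other neighbours did not overlap in PBS. In PFF, Neurod6 (39.0 ± 3.61) and Mef2c (38.1 ± 4.45) overlapped, as did Tbr1 (6.54 ± 0.688) and Foxp1 (5.63 ± 0.943), and Fezf2 and Cux2 exchanged places within their spread. The order depends on the length used: with the longest annotated transcript Mef2c stood first (74.6 ± 6.59 in PBS), Foxp1 (8.14 ± 0.711) above Tbr1 (6.87 ± 0.201), and Fezf2 above Cux2.

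**Figure D5:**
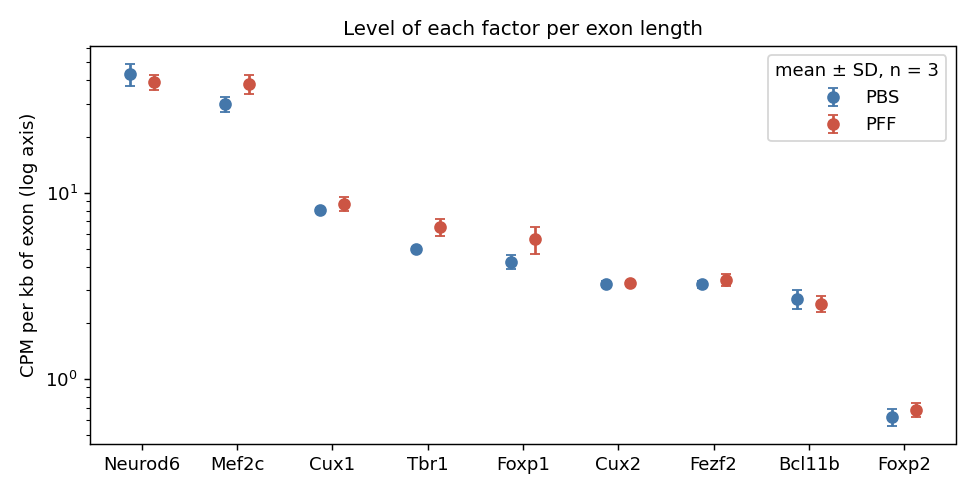
CPM per kb of exon (y axis, log scale) of the 9 factors in PBS and PFF, mean and SD of 3 samples each. The levels run from 43.2 (Neurod6) to 0.624 (Foxp2) in PBS.

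Among 11523 other genes averaging 5 CPM or more, those whose log2 CPM most resembled each factor over the 6 samples were listed by Pearson's r, as a description that carries no test. For Tbr1 they were Ubn1 (0.998) and Hs3st2 (0.997), for Foxp1 Dnm1 (0.998) and Kpna3 (0.997), and for Mef2c Fmr1 (0.998) and Homer1 (0.996). The highest values for the factors that did not pass were with Ccar1 (Foxp2, 0.990), Scfd1 (Bcl11b, 0.978), Cyp1b1 (Fezf2, 0.985), Dos (Cux1, 0.993), Cflar (Cux2, 0.995) and Mthfd2 (Neurod6, 0.9897). With 6 samples and this many genes, values this high are found for every factor, whether or not it passed.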

How the data were processed

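RNA of 3 PBS and 3 PFF samples of cultured mouse cortex was sequenced; per the labels, the kit keeps the strand. The authors deposited unscaled estimated counts for each gene, of which 8.69% were not whole. Trim Galore 0.6.6, STAR 2.7.9a and DESeq2 1.38.3 are named with mm10 in the submitters' processing notes. For the counting step, the tool, strand setting and gene annotation were not given in the sources used here, so reads of overlapping genes may have been shared.

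Columns were matched to samples by name and groups taken from sample titles. Estimated counts were rounded, filtered with edgeR's filterByExpr (10492 of 24411 genes removed), TMM-normalised and tested with the robust quasi-likelihood F-test of edgeR 4.0.16 in R 4.3.3 (limma 3.58.1), two-sided, with Benjamini-Hochberg adjustment over all 13919 genes. SEs were derived from the F statistic (|log2 fold change| over the root of F). For log2 CPM a prior count of 2 was added. The steps were tested on simulated data. Coordinates, exon lengths and overlaps come from GENCODE vM21 (GRCm38), promoters from RefSeq (GRCm38.p6).

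The 9 factors and the gene lists were chosen with earlier results of these data known. From each list the 4 genes with the smallest unadjusted p could be named, besides paralogs and the 2 genes most like each factor (largest r). Genes named for being at or near 0, and the remaining paralogs, were named after their values were seen. Some listed genes are counted but not reported by name here. Alternatives were other scalings (by library size alone, by upper quartile, by DESeq2's size factors), low-count filters (none, or at least 50 counts in 3 samples), tests (limma-voom, DESeq2 1.42.0, non-robust edgeR), a replicate block, replicate 3 as a batch term, replicates 1 and 2 only, and leaving out each sample in turn.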

Additional observations from a re-analysis of the deposited data

How the results depend on the processing

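The deep minus upper difference of 0.06 (log2) kept its sign under each of its alternatives, between 0.02 and 0.12. Of the 9 factors, 3 passed, and 1 (Tbr1) with upper quartile scaling or with the filter of at least 50 counts in 3 samples. Leaving out 1 sample gave between 0 and 3 factors, between 412 and 1858 changed genes of all tested (916 with all samples) and between 0 and 10 of the further layer genes (3 with all samples). With replicates 1 and 2 only these counts were 3 factors, 2394 genes and 12 further layer genes, and with replicate 3 as a batch term 3, 2005 and 9. With the replicate number as a block they were 3, 1997 and 8. No label says whether samples of the same number are paired, and the main test took them as unpaired. Deviations from the group means of same-numbered samples correlated at 0.0919, 0.109 and 0.202 over genes (not independent replicates). PBS 2 correlated better with PFF 1 (0.128) than with PFF 2, and the other pairs of unlike number lay between −0.207 and −0.00869. The cause of the shifts in these counts was not tested. No named gene changed sign past the threshold under any alternative.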
